A study of Rattus norvegicus with 48 samples.

Results

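A set of 40 genes of the cell division programme was followed from control liver to advanced liver cancer in rats. They were chosen by name, with earlier results of these data known. The role groups were entry into the cycle, DNA replication, nucleotide supply, entry into mitosis, the spindle checkpoint, the spindle and kinetochore, and chromosome structure. The array carried a probe for 34 of the 40 among 13337 named genes, and these 34 are the genes described here. Cdk2, Rrm1, Tk1, Birc5, Top2a and Mki67 had no probe, so the usual proliferation marker Mki67 was not measured. Of the 34, 33 were detected (detection p under 0.05) in at least 4 of the 48 arrays and 8 in all 48, namely Cdk4, Ccnd1, Pcna, Mcm6, Mcm7, Ccnb2, Cks2 and Cdc20. The probe of cyclin B1 (Ccnb1) was detected in 2 arrays and carries little information.

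Each array held RNA of 1 laser-captured region of liver from male F-344 rats. Per the labels' protocols the rats were initiated with 150 mg/kg of the liver carcinogen diethylnitrosamine, recovered for 2 weeks, ate a diet with 0.02% 2-acetylaminofluorene for 1 week, underwent partial hepatectomy and kept to the diet for 1 further week. This model lets initiated hepatocytes regrow while 2-acetylaminofluorene blocks division of the others. The groups were 10 controls, 20 nodules at 10 weeks (10 labelled KRT19-positive and 10 KRT19-negative, after keratin 19), 4 adenomas and 5 early hepatocellular carcinomas (early HCC) at 10 months, and 9 advanced hepatocellular carcinomas (advanced HCC) at 14 months. The protocol text is the same on every sample, so what the controls received, and their age, are not given in the sources used here, and no treated liver outside a lesion was analysed here. The labels do not tie regions to rats. Lesions may share an animal, p-values may then be too small, and all measure the spread between these samples. In whole captured regions, a larger share of dividing cells and more transcript per dividing cell cannot be told apart.

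The label and the Krt19 transcript disagreed in samples 15 to 24. Krt19 lay at a log2 intensity of 11.64 to 13.15 in samples 1 to 5 (labelled positive) and 7.69 to 10.50 in samples 6 to 10 (labelled negative), but at 11.49 to 12.96 in samples 15 to 19 (labelled negative) and 7.70 to 10.60 in samples 20 to 24 (labelled positive). The nodules are therefore given both by label and as 10 Krt19-high nodules (samples 1 to 5 and 15 to 19) and 10 Krt19-low nodules (samples 6 to 10 and 20 to 24). The difference between the latter 2 groups is the label-by-number-range interaction divided by 2. The split rests on the Krt19 level of the same arrays, so Krt19 itself is no result here.

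Dividing cells pass from G1 through S phase, where DNA is copied, to G2 and mitosis. Cyclins bind cyclin-dependent kinases (CDKs) and drive each step: cyclin D with CDK4 in G1, cyclin E and E2F1 at S entry, cyclins A and B with CDK1 into mitosis. Adult hepatocytes are mostly quiescent and re-enter the cycle after injury or partial hepatectomy, and the transcripts of replication and mitosis genes are scarce outside dividing cells.

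Many cell division genes were higher than in control liver in adenomas, early HCC, advanced HCC and Krt19-high nodules, and none of the 34 fell against control in any lesion group. Nodules labelled KRT19-positive had 8 of the 34 higher (5.19% of all 22067 features were higher and 5.03% lower) and nodules labelled KRT19-negative had 6 higher (5.33% of features higher, 5.23% lower). Divided by transcript, Krt19-high nodules had 17 of 34 higher (9.98% higher and 10.3% lower over all features), and Krt19-low nodules had 1 higher (2.83% and 2.73%), a share of the 34 close to that of all features. With sets of 12 consecutive sample numbers as a block, 0 genes passed in nodules of either label and in Krt19-low nodules, and 8 passed in Krt19-high nodules. Of all 22067 features, this block called 654 higher in KRT19-positive, 607 in KRT19-negative, 369 in Krt19-low and 1550 in Krt19-high nodules. With the number range as a block, 4 passed in nodules labelled KRT19-positive (955 features higher). In adenomas 22 rose (7.64% of features higher, 7.09% lower), in early HCC 25 (9.69% and 8.73%), and in advanced HCC 27 (11.5% higher and 11.5% lower). Calls are by limma at an adjusted p under 0.05 over all features. Those of adenomas, early HCC and advanced HCC come from the fit of 6 labelled groups. Those of Krt19-high and Krt19-low nodules come from a fit with nodules divided by sample number. In that second fit 26, 26 and 27 of the 34 rose in adenomas, early HCC and advanced HCC. Of all 22067 features 1864, 2278 and 2724 were higher there. The median log2 difference of the 34 genes from control was 0.13 in Krt19-low nodules, 0.29 in Krt19-high nodules, 0.75 in adenomas, 0.72 in early HCC and 0.68 in advanced HCC, where the median of all features stayed within 0.1 of 0. These comparisons share their 10 controls.

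Array by array the order was similar, with exceptions in advanced HCC and Krt19-low nodules. The median of the 34 differences from the control mean ran from -0.09 to 0.14 in controls, from -0.08 to 0.32 in Krt19-low nodules, from 0.19 to 0.41 in Krt19-high nodules, from 0.51 to 0.81 in adenomas and from 0.52 to 0.91 in early HCC. No adenoma or early HCC array overlapped any control or nodule array on this measure. Advanced HCC spread from 0.07 to 1.36. Its lowest array was sample 29, which lay among the controls, and its highest was sample 36, where 30 of the 34 genes stood above every control. Samples 32 and 33, at 0.33 and 0.40, lay inside the nodule range. Of the Krt19-low nodules, samples 7 and 23 stood highest, at 0.29 and 0.32, inside the range of the Krt19-high nodules. Detection followed: 12 to 23 of the 34 genes were detected per control array, 13 to 29 per Krt19-low nodule, 22 to 30 per Krt19-high nodule, 29 to 32 per adenoma, 29 to 33 per early HCC and 17 to 34 per advanced HCC. The number of all probes detected also differed between groups, from 8323 to 9682 in controls, 8380 to 10417 in Krt19-low nodules, 9424 to 10695 in Krt19-high nodules, 9986 to 10450 in adenomas, 10199 to 11434 in early HCC and 8689 to 10287 in advanced HCC. Its part in the result was not tested.

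**Figure D1:**
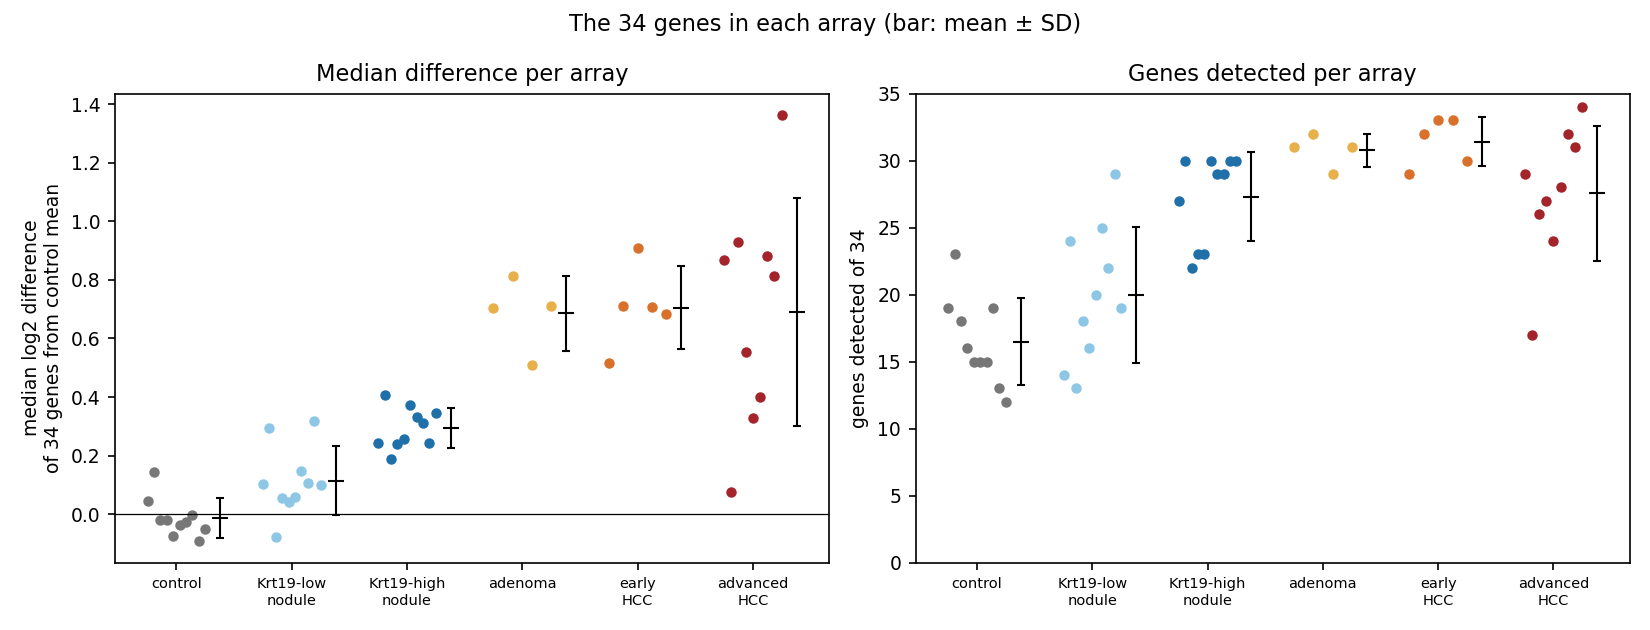
The median log2 difference of the 34 cell division genes from the control mean in each array, and how many of the 34 were detected in it. Points are arrays and bars are mean ± SD. Adenomas and early HCC lie between 0.51 and 0.91, above every control and nodule, while 1 advanced HCC lies at 0.07.

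The largest changes in adenomas, early HCC and advanced HCC were those of Cdk1 and cyclin B2, both genes of mitotic entry. The median change of that role was lower than that of the spindle, kinetochore and cytokinesis genes. It was 0.21 against 0.39 in Krt19-high nodules and 0.93 against 0.99 in adenomas. In early HCC it was 0.84 against 0.91, and in advanced HCC 0.74 against 0.89. Cdk1, the kinase that starts mitosis, had a log2 intensity of 7.21, 7.68 and 8.30 in controls (lowest, median and highest). In Krt19-low nodules it lay at 7.15, 7.98 and 9.22, and in Krt19-high nodules at 8.48, 8.62 and 9.46, above every control. In adenomas it was 10.34, 10.34, 9.55 and 10.05, and in early HCC 9.50, 9.85, 10.51, 9.87 and 9.87, so that these 9 lesions stood above all 20 nodules. Advanced HCC lay at 8.02, 10.53 and 11.41, with sample 29 alone inside the control range. Relative to control the log2 change was 1.06 ± 0.26 SE in Krt19-high nodules (adjusted p = 0.00153), 2.37 ± 0.36 SE in adenomas (adjusted p = 3.77e-06), 2.22 ± 0.33 SE in early HCC (adjusted p = 1.45e-06) and 2.49 ± 0.28 SE in advanced HCC (adjusted p = 2.38e-09), or 5.63-fold. In Krt19-low nodules the change was 0.42, which did not pass. Within samples 1 to 14 and samples 15 to 27 the Krt19-high change was 0.78 and 1.05, and neither passed there.

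Cyclin B2 (Ccnb2), a mitotic cyclin that binds CDK1, showed the largest change of the 34 genes in both labelled and both transcript-defined nodule groups, in adenomas and in early HCC. Its control arrays lay at 7.62, 8.06 and 8.96. Krt19-low nodules spread over 7.68, 8.83 and 10.39, overlapping the controls, while Krt19-high nodules lay at 9.24, 9.61 and 10.84 and did not overlap them. The 4 adenomas read 10.52, 10.68, 10.41 and 10.80, the 5 early HCC 9.58, 9.80, 11.01, 10.92 and 11.07, and advanced HCC 9.11, 10.28 and 11.01 as lowest, median and highest. The log2 change was 0.85 ± 0.25 SE in Krt19-low nodules, where it was the single gene to pass and did so in 11 of 20 fits that left out 1 array, but not within either number range or with sets of 12 as a block. It was 1.65 ± 0.25 SE in Krt19-high nodules (3.14-fold, adjusted p = 1.62e-06), 2.51 ± 0.37 SE in adenomas (5.71-fold), 2.39 ± 0.34 SE in early HCC (5.23-fold) and 2.06 ± 0.29 SE in advanced HCC (4.16-fold). Under the original labels it rose by 1.36 in KRT19-positive and 1.14 in KRT19-negative nodules.

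The other 6 genes of mitotic entry differed among themselves. Cyclin A2 (Ccna2), which partners CDKs in S phase and G2, was detected in 0 of 10 controls, 10 of 10 Krt19-high nodules, 4 of 4 adenomas, 5 of 5 early HCC and 8 of 9 advanced HCC. Its intensity was at least 2.17-fold higher in adenomas, 2.06-fold in early HCC, 1.84-fold in advanced HCC and 1.18-fold in Krt19-high nodules. Such bounds set the lesion mean against, per control array, the higher of the gene's own signal and the lowest signal among detected probes. Polo-like kinase 1 (Plk1) was also detected in no control and was at least 1.59-fold higher in adenomas, 1.47-fold in early HCC and 1.32-fold in advanced HCC. It passed in Krt19-high nodules too, in 20 of 20 fits that left out 1 array (log2 change 0.26 to 0.30). In nodules labelled KRT19-negative Plk1 passed, but in only 6 of 20 such fits. Cks2, a small subunit that binds CDKs, ran from 9.34 to 9.70 in Krt19-high nodules against 9.38 to 9.71 in controls (difference 0.02 ± 0.22 SE, not passed), but rose by 0.89 in adenomas, 0.83 in early HCC and 0.79 in advanced HCC. From Krt19-high nodules to advanced HCC it rose by 0.77 ± 0.22 SE (adjusted p = 0.0119). With sets of 12 sample numbers as a block none of the 34 genes, Cks2 included, passed in that comparison. That block left only 19 of 22067 features higher. Aurora kinase A (Aurka), needed for spindle poles, rose by 0.45 in adenomas and 0.47 in advanced HCC. The kinase Melk did not pass against control in any group, with differences of 0.14, 0.23, 0.16 and 0.10 in Krt19-high nodules, adenomas, early HCC and advanced HCC. Cyclin B1 did not pass either.

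**Figure D2:**
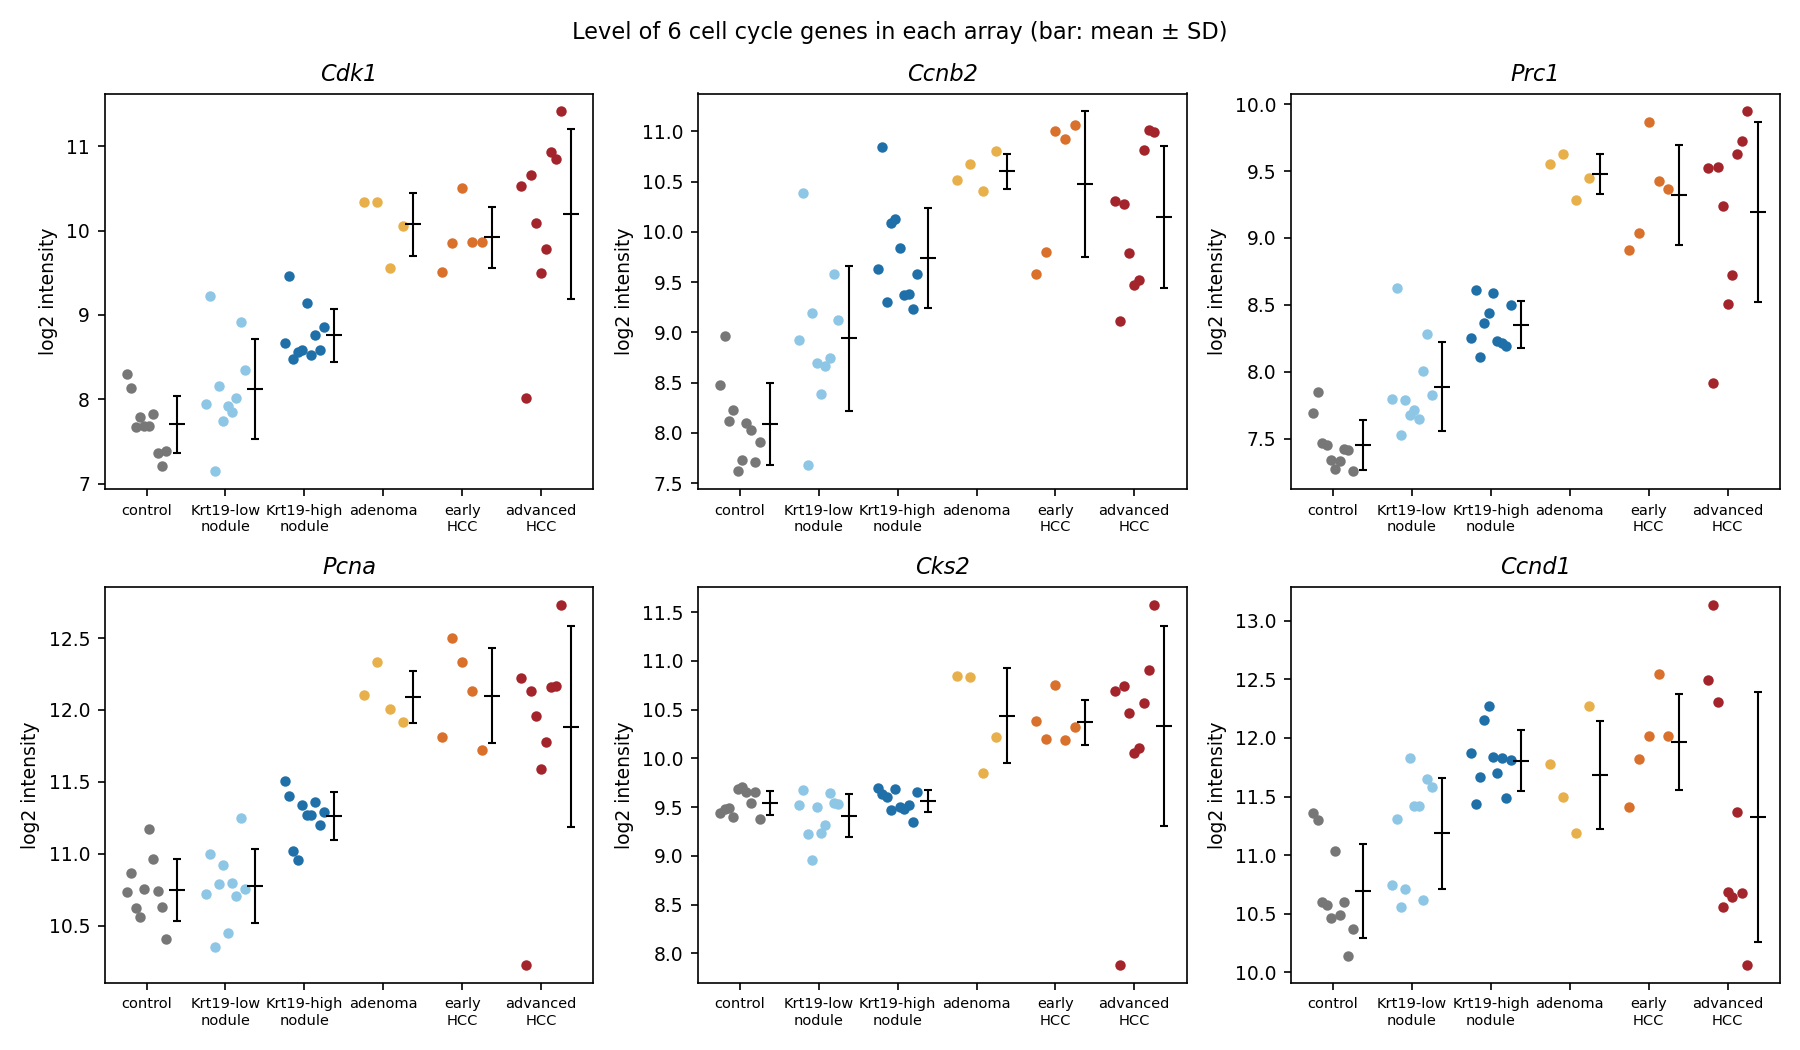
Log2 intensity of 6 cell division genes in each of the 48 arrays, by group (points), with mean ± SD (bars). Cdk1, Ccnb2 and Prc1 are higher in Krt19-high nodules than in controls and higher still in adenomas, Cks2 is level until the adenomas, and Ccnd1 is above 12 in 3 advanced HCC arrays and between 10.07 and 11.37 in the other 6.

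The promoters of leading genes are shown because many genes of this programme are known in mammals to share short elements near their starts. CCAAT boxes are bound by the factor NF-Y. The cell cycle homology region (TTTGAA, or the variant TTTAAA) is bound by the DREAM complex, which silences such genes in quiescent cells, and E2F sites (here TTCCCGC and TTTGGCG) time genes of S phase. RefSeq (GRCr8) gave a promoter for 26 of the 34 genes. Printed are the 250 bases before the start for the 4 genes with the largest called change in Krt19-high nodules among those with an entry, 5′ to 3′ on the strand of the gene. Capitals mark CCAAT or its reverse complement ATTGG, and also the elements TTTGAA and TTTGGCG. They are Ccnb2 (chr8:79981659-79981908, minus strand), Cdk1 (chr20:19265043-19265292, plus strand), Prc1 (chr1:143659231-143659480, plus strand) and Mcm6 (chr13:42404353-42404602, minus strand). The windows of Ccnb2, Cdk1 and Prc1 overlap the outermost extent of the annotated gene, since the start used is not its outermost one.
Ccnb2: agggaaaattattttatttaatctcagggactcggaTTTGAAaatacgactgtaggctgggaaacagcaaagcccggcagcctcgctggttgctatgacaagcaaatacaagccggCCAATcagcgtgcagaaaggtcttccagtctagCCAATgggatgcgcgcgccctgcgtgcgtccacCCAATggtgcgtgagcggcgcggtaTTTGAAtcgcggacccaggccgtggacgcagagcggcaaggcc
Cdk1: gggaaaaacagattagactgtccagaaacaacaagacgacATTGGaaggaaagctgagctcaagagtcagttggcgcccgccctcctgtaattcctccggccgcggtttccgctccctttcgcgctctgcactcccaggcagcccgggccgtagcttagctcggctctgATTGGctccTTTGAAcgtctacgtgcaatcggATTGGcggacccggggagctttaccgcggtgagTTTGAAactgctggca
Prc1: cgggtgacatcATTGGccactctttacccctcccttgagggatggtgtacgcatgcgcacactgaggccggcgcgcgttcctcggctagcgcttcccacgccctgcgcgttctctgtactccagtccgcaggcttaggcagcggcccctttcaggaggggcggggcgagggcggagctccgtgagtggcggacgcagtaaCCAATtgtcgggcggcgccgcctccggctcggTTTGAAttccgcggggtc
Mcm6: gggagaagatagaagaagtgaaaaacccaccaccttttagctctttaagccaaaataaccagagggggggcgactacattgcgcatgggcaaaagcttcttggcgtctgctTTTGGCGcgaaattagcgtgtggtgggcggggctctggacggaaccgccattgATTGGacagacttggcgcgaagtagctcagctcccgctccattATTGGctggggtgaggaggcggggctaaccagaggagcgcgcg
The letters CCAAT occurred, on either strand, in 17 of the 26 promoters (65.4%) against 34.3% of 27457 promoters of the same length, and at least 2 times in 14 (53.8%) against 9.77%, a count added after the matches were seen. TTTGAA was found in 6 (23.1% against 16.0%), and TTTAAA, which reads the same on both strands, in 10 (38.5% against 12.2%). TTCCCGC was found in 2 (7.69% against 3.58%) and TTTGGCG in 3 (11.5% against 1.26%). Ccnb2 and Cdk1 each held CCAAT 3 times and TTTGAA 2 times, and Prc1 held CCAAT 2 times and TTTGAA 1 time. Mcm6, a replication gene, held CCAAT 2 times and TTTGGCG 1 time but not TTTGAA. Some genes that passed against control in no lesion group held such motifs too. Mcm5 held CCAAT 3 times, TTCCCGC 1 time and TTTGGCG 1 time, Ccnb1 CCAAT 2 times and TTTAAA 1 time, and Ccne1 TTTAAA 1 time. Melk, which passed in no lesion group either, held none of the 5 motifs. These matches are letters in a window and were not tested for binding.

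Genes of the spindle checkpoint and the anaphase-promoting complex were higher mainly in the later lesions. None of the 5 passed in Krt19-high nodules (log2 differences of 0.06 for Bub1b to 0.42 for Cdc20), whereas 4 rose in adenomas and all 5 in early HCC and in advanced HCC. Cdc20, the activator of the anaphase-promoting complex, lay at 7.62, 7.82 and 8.11 (lowest, median and highest) in controls and at 7.94, 8.18 and 8.66 in Krt19-high nodules. Adenomas read 9.75, 9.51, 9.27 and 9.59, above both. The change was 1.71 ± 0.21 SE in adenomas (3.28-fold, adjusted p = 1.33e-07), 1.45 in early HCC and 1.18 in advanced HCC. Ube2c, the ubiquitin-conjugating enzyme of the same complex, lay at 7.18, 7.29 and 7.79 in controls and 7.31, 8.78 and 9.76 in advanced HCC, and rose by 1.04, 1.08 and 1.19 in adenomas, early HCC and advanced HCC. The checkpoint kinases Bub1 (0.83, 0.89 and 0.83) and Ttk (0.68, 0.67 and 0.62) rose in all 3, and Bub1b in early HCC (0.35) and advanced HCC (0.28). Set directly against Krt19-high nodules, advanced HCC had 4 of these 5 genes higher, with Ube2c up by 0.85 ± 0.17 SE (adjusted p = 0.000270) and Cdc20 by 0.76 ± 0.17 SE (adjusted p = 0.000856). These groups lie in different ranges of sample numbers, and 0 of the 5 passed once sets of 12 were blocked. Of all 22067 features only 19 were higher under that block.

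Spindle, kinetochore and cytokinesis genes rose in most lesion groups, and 4 of the 8 were already higher in Krt19-high nodules. Prc1, which bundles the microtubules of the central spindle, lay at 7.26, 7.42 and 7.85 in controls and at 8.11, 8.31 and 8.61 in Krt19-high nodules, with no overlap. Adenomas read 9.56, 9.63, 9.28 and 9.45, and early HCC 8.91, 9.04, 9.87, 9.43 and 9.36. The change was 0.90 ± 0.16 SE in Krt19-high nodules (adjusted p = 3.50e-05), 2.03 ± 0.23 SE in adenomas (4.08-fold), 1.87 ± 0.22 SE in early HCC (3.66-fold) and 1.74 ± 0.18 SE in advanced HCC (3.35-fold). Kif20a, a motor of cytokinesis, rose by 0.58, 1.66, 1.61 and 1.02 in Krt19-high nodules, adenomas, early HCC and advanced HCC. In the same order Aurora kinase B (Aurkb), the kinase of the chromosomal passenger complex, rose by 0.48, 1.12, 1.13 and 1.17, and the spindle assembly factor Tpx2 by 0.57, 1.12, 1.05 and 0.78. The mitotic motor Kif11 (0.86, 0.76 and 0.98) and the microtubule binder Nusap1 (0.52, 0.62 and 0.79) rose in the 3 later groups, with 0.29 and 0.24 in Krt19-high nodules, where neither passed. Nusap1 was detected in no control and was at least 1.11-fold, 1.18-fold and 1.34-fold higher in the later groups. The kinetochore protein Cenpf was detected in 0 of 10 controls and in 8 of the 48 arrays. It passed in all 3 later groups, at least 1.02-fold higher in early HCC and with no bound above 1 in adenomas, where the call held in 9 of 14 fits that left out 1 array, or in advanced HCC, where it held in 7 of 19. The depolymerising motor Kif2c passed in early HCC (0.39) and, without sample 29, in advanced HCC (0.27).

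Replication genes changed less, apart from Pcna and Mcm6. Pcna, the sliding clamp of the replication fork, lay at 10.35, 10.77 and 11.25 in Krt19-low nodules and 10.41, 10.74 and 11.18 in controls (lowest, median and highest). In Krt19-high nodules it lay at 10.95, 11.28 and 11.51, and in adenomas it read 12.10, 12.33, 12.00 and 11.92. The change was 0.51 ± 0.16 SE in Krt19-high nodules (adjusted p = 0.0181), 1.34 ± 0.23 SE in adenomas, 1.35 ± 0.22 SE in early HCC and 1.14 ± 0.18 SE in advanced HCC (2.20-fold). Mcm6, a subunit of the replicative helicase, rose by 0.82 ± 0.14 SE in Krt19-high nodules and by 0.97, 0.95 and 1.07 in the later groups. Of the other helicase subunits, Mcm7 rose by 0.30, 0.51, 0.53 and 0.64 in the 4 groups in the same order, Mcm3 passed in Krt19-high nodules (0.24) and advanced HCC (0.29), and Mcm2 in advanced HCC (0.42). Mcm4 and Mcm5 passed against control in neither labelled nor transcript-defined nodule group, nor in adenomas, early HCC or advanced HCC, with differences of at most 0.15. Taken alone, nodule samples 6 to 10 had Mcm5 higher by 0.23 ± 0.07 SE (adjusted p = 0.0313). The probes of Mcm3, Mcm4 and Mcm5 were detected in 24, 21 and 23 of the 48 arrays. Both nucleotide genes rose in all 4 groups. Rrm2, the regulated subunit of ribonucleotide reductase, lay at 6.98, 7.37 and 7.72 in controls and at 8.04, 8.35 and 8.65 in Krt19-high nodules, above every control. It rose by 0.97 ± 0.18 SE there (adjusted p = 4.05e-05) and by 1.38, 1.47 and 1.31 in the later groups. Thymidylate synthase (Tyms) rose by 0.33, 0.54, 0.52 and 0.56.

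Genes of G1 and S entry did not move together. Cyclin D1 (Ccnd1), which responds to growth signals, lay at 10.14, 10.58 and 11.36 in controls. Krt19-high nodules lay at 11.44, 11.82 and 12.27, with no overlap, a change of 1.11 ± 0.26 SE (2.16-fold, adjusted p = 0.000885). Adenomas read 11.77, 11.49, 11.19 and 12.27 and early HCC 11.41, 11.82, 12.02, 12.54 and 12.01. The gene passed in early HCC (1.27 ± 0.33 SE, adjusted p = 0.00353) but not in adenomas (0.99 ± 0.36 SE, adjusted p = 0.0532) or advanced HCC (0.63 ± 0.28 SE, adjusted p = 0.0978). The nodule call and these calls come from different fits and are not a test between the groups. Among the 9 advanced HCC, samples 28, 29 and 30 read 12.49, 13.13 and 12.31, and samples 31 to 36 read 10.55, 10.68, 10.64, 11.37, 10.68 and 10.07. Sample 29, the lowest for Cdk1 at 8.02, was thus the highest for cyclin D1, and sample 36, at 11.41 for Cdk1, was the lowest. Cdk4, the kinase partner of cyclin D1, rose by 0.60 ± 0.13 SE in Krt19-high nodules, 0.61 in early HCC and 0.67 in advanced HCC. In the 4 adenomas Cdk4 read 10.09, 10.43, 10.69 and 10.25, above every control, but did not pass. None of the 4 measured genes of this role passed in adenomas. The transcription factor E2f1 was detected in no control, in 7 of 10 Krt19-high nodules and in 6 of 9 advanced HCC. It passed in both, at least 1.03-fold higher in advanced HCC and with no bound above 1 in Krt19-high nodules. Cyclin E1 (Ccne1) passed in none, with differences of -0.04 to 0.12 from control over the lesion groups.

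**Figure D3:**
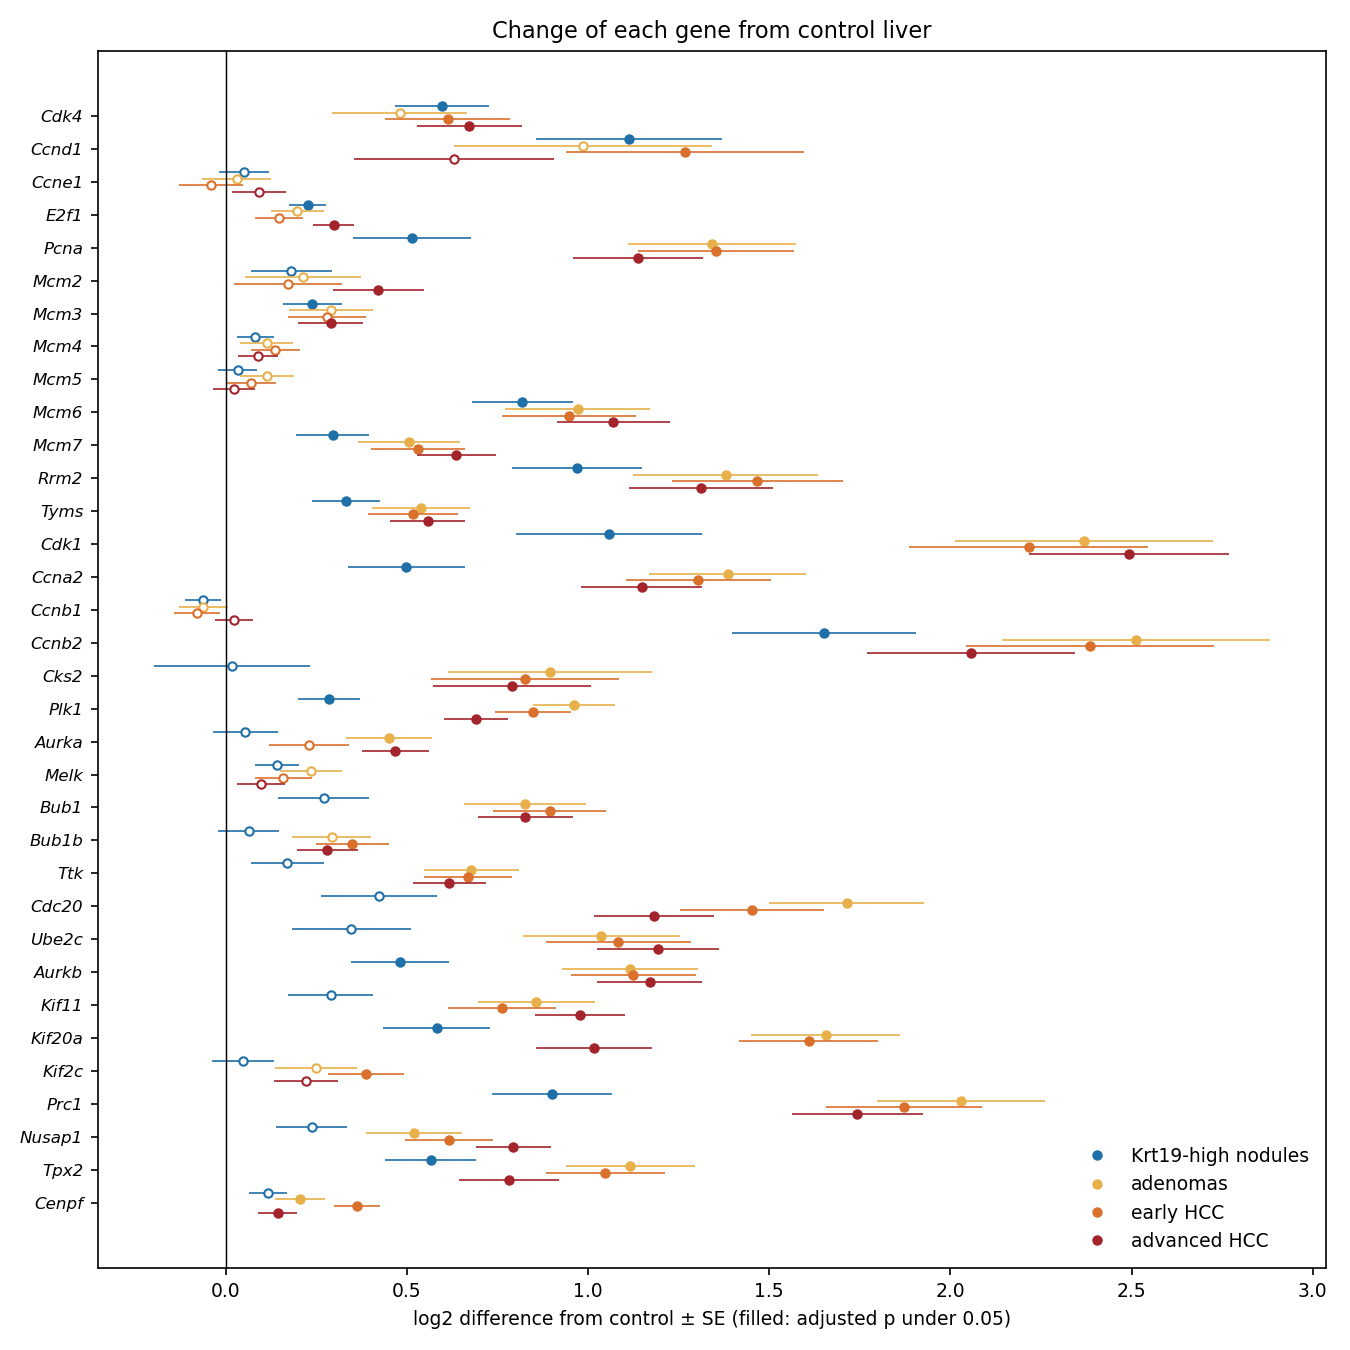
Log2 difference from control ± SE of each of the 34 genes (rows, by role) in Krt19-high nodules, adenomas, early HCC and advanced HCC; filled points passed at an adjusted p under 0.05. Cdk1 reaches 2.49 and Ccnb2 2.51, while Ccne1, Mcm4, Mcm5, Ccnb1 and Melk passed in none of the 4 groups.

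Sample 29 moved the advanced HCC values more than the count of calls. With all 9 arrays, 6 of the 34 genes (Ccnb2, Plk1, Cdc20, Kif11, Prc1 and Nusap1) lay above every control in every array (2.81% of all features did), and without sample 29 it was 18 (4.29% of features), a choice made after its level was seen. The count of genes that rose by limma was 27 with it and 28 without it. In sample 29 Cks2 was 7.88 against 10.05 to 11.57 in the other 8, Pcna 10.23 against 11.59 to 12.73, and Cdk4 9.29 against 10.32 to 11.36. Without it the changes of Cks2, Pcna and Cdk1 were 1.10, 1.34 and 2.77. In adenomas 22 of the 34 genes stood above every control in all 4 arrays (5.57% of features), in early HCC 21 in all 5 (5.42%), in Krt19-high nodules 10 in all 10 (3.98%) and in Krt19-low nodules 0 (0.394%).

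The lesion groups were also compared directly. Nodules labelled KRT19-positive and KRT19-negative differed in 0 of the 34 genes (limma; 0% of features were higher and 0% lower), with 0 also at an unadjusted p under 0.05. Krt19-high nodules exceeded Krt19-low ones in 6 genes (5.4% of features higher, 4.83% lower), namely Ccnb2 (0.80 ± 0.25 SE, adjusted p = 0.0335), Rrm2 (0.54 ± 0.18 SE), Pcna (0.49 ± 0.16 SE), Cdk4 (0.39 ± 0.13 SE), Mcm3 (0.24 ± 0.08 SE) and Melk (0.19 ± 0.06 SE). The count fell to 0 without sample 2, sample 15 or sample 21. It was also 0 within samples 1 to 14 and within samples 15 to 27, where the Ccnb2 difference was 1.02 and 0.58.

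At 10 months early HCC and adenomas differed in 0 of the 34 genes (limma; 0% of features were higher and 0% lower), with 0 also at an unadjusted p under 0.05. With 5 and 4 arrays the differences ran from -0.26 ± 0.24 SE for Cdc20 to 0.28 ± 0.40 SE for Ccnd1. Advanced against early HCC gave 0 higher (4.21% of features) and 2 lower (4.58%). Kif20a lay at 7.63, 8.55 and 9.11 (lowest, median and highest) in advanced and 8.66, 8.85, 9.67, 9.19 and 9.19 in early HCC, a difference of -0.59 ± 0.20 SE (adjusted p = 0.0472). Cenpf differed by -0.22 ± 0.07 SE (adjusted p = 0.0247). Of 14 fits that left out 1 array, Kif20a passed in 5 and Cenpf in 10, and neither passed without sample 31, 40, 44 or 45. With sets of 12 as a block 0 of the 34 genes were lower, and 1 of 22067 features was. After neqc background correction 1 of the 34 genes was lower.

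Advanced HCC stood above Krt19-high nodules in 16 of the 34 genes and below in 0 (7.33% and 6.88% of features). These were 5 of mitotic entry, 4 of the spindle checkpoint, 5 of the spindle and kinetochore, and Pcna and Mcm7 of replication. Of 19 fits that left out 1 array, Kif20a passed in 6, Mcm7 in 18 and the others in all 19. Cdk1 led (1.43 ± 0.26 SE, 2.70-fold, adjusted p = 8.49e-05). Genes of G1 and S entry and of nucleotide supply did not pass, with Ccnd1 at -0.48 ± 0.26 SE and Rrm2 at 0.34. Advanced HCC and nodules lie in different ranges of sample numbers. With the number range as a block 7 genes rose, and 1022 of 22067 features were higher. With sets of 12 sample numbers as a block 0 genes rose. Under that block only 19 of 22067 features were higher, so the loss is not particular to these genes.

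**Figure D4:**
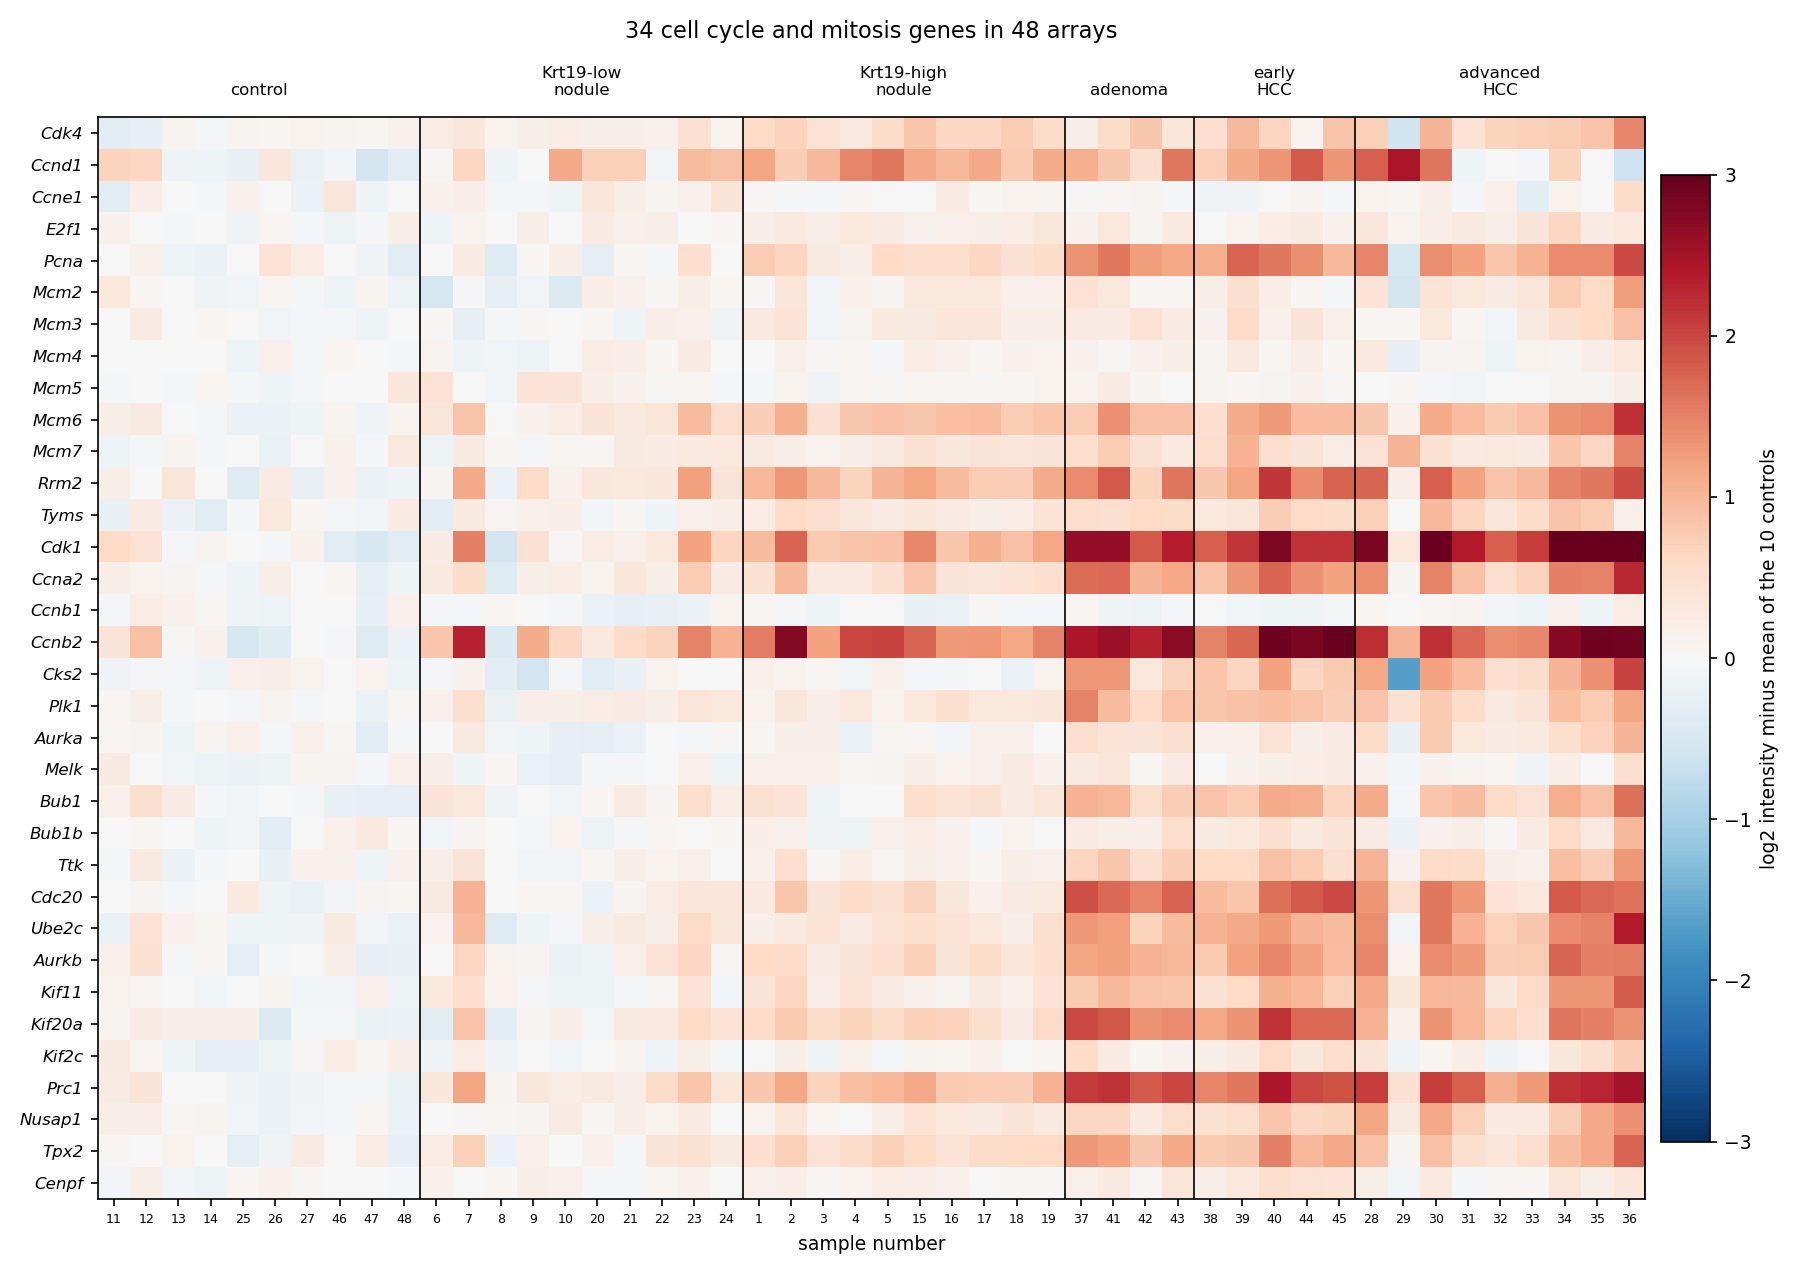
Log2 intensity of the 34 genes (rows) in the 48 arrays (columns, sample numbers) minus the mean of the 10 controls, on a colour scale from -3 to 3. Adenomas, early HCC and most advanced HCC stand above the controls in most mitosis genes, sample 29 does so in few, and Krt19-high nodules show smaller differences.

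Other genes of the cycle, in lists chosen by role, give the setting. Their counts stand beside 9.98% of all features higher and 10.3% lower in Krt19-high nodules, and 11.5% either way in advanced HCC. Of 27 further mitosis genes measured, 10 were higher and 0 lower in Krt19-high nodules and 20 higher and 0 lower in advanced HCC, with list medians of 0.19 and 0.58. Stathmin (Stmn1), which destabilises microtubules, rose by 1.41 and 1.56 in these 2 groups, the phosphatase Cdkn3 by 1.04 in Krt19-high nodules and the motor Kif22 by 1.63 in advanced HCC. Of 27 further replication genes 7 were higher and 2 lower in Krt19-high nodules. Pold2, a DNA polymerase delta subunit, rose by 0.57 and Gins1, a helicase cofactor, by 0.33, while the clamp loader subunit Rfc5 (-0.36) and Mcm10 (-0.20) were lower. In advanced HCC 14 of them were higher and 0 lower, led by the licensing inhibitor geminin (Gmnn, 1.20) and the clamp loader subunit Rfc4 (0.93). Of 9 other G1 regulators, the transcription factor Myc rose by 1.76 in Krt19-high nodules and 1.71 in advanced HCC. Cdc25a, a phosphatase that activates CDKs, rose by 0.70 in advanced HCC, and Cks1b, the paralog of Cks2, was lower in Krt19-high nodules (-0.89).

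Brakes on the cycle moved in numbers near those of all features in Krt19-high nodules and advanced HCC. Of 12 measured, 2 were higher and 1 lower in Krt19-high nodules (9.98% and 10.3% of features). In advanced HCC 2 were higher and 2 lower (11.5% either way). In adenomas 3 were higher and 1 lower (7.64% and 7.09%), and in early HCC 4 and 1 (9.69% and 8.73%). Krt19-high against Krt19-low nodules gave 4 higher and 1 lower (5.4% and 4.83%). Wee1, a kinase that inhibits CDK1, rose by 0.90 in Krt19-high nodules and 0.75 in advanced HCC, and Ccng1, a p53 target, by 0.49 in Krt19-high nodules. Rbl2 (p130), the pocket protein of quiescent cells, was lower in both groups (-0.50 and -0.82), as was the antiproliferative gene Tob1 in advanced HCC (-0.54). Cdkn1a (p21), the CDK inhibitor induced by p53, was detected in 0 of 10 controls and ran from 6.93 to 7.36 there. It did not pass in Krt19-high nodules (0.11) and rose in adenomas (0.29), early HCC (0.28) and advanced HCC (0.33, at least 1.04-fold), where 8 of 9 arrays detected it.

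Some markers of other cells also differed from control in the lesion groups, and their part in these results was not tested. Counts are given in the order Krt19-high nodules, adenomas, early HCC and advanced HCC. In this order 9.98%, 7.64%, 9.69% and 11.5% of all features were higher, and 10.3%, 7.09%, 8.73% and 11.5% lower. Of 8 stellate cell and fibroblast markers 4, 4, 5 and 3 were higher and 1, 0, 1 and 0 lower. Their summed level, as log2 of summed intensity, was 11.85 to 12.68 in controls, 12.16 to 13.37 in Krt19-low nodules, 13.09 to 14.13 in Krt19-high nodules, 12.88 to 14.87 in adenomas, 12.83 to 14.92 in early HCC and 12.64 to 13.71 in advanced HCC. Of 7 biliary and progenitor markers, 3, 3, 3 and 4 were higher, with a summed level of 10.49 to 11.02 in controls, 10.67 to 12.54 in Krt19-low nodules, 13.12 to 14.10 in Krt19-high nodules, 12.24 to 15.32 in adenomas, 12.51 to 15.63 in early HCC and 11.23 to 14.12 in advanced HCC. Krt19 is among these 7 and is part of the sum. It also chose the split, so the count and sums of Krt19-high and Krt19-low nodules here are no separate result. Of 9 hepatocyte markers 0, 0, 0 and 0 were higher and 1, 2, 5 and 3 lower, and all 9 were detected in every group, with a summed level of 17.60 to 17.99 in controls and 16.67 to 17.62 in advanced HCC. Of 10 T cell and leukocyte markers 1, 0, 0 and 1 were higher, with the B cell gene Ms4a1 detected in no group and a summed level of 10.92 to 11.30 in controls and 10.67 to 12.13 in advanced HCC. Of 6 macrophage markers 2, 1, 1 and 0 were higher and 1, 2, 2 and 1 lower. Of 4 endothelial markers 0, 0, 0 and 0 were higher and 0, 1, 1 and 0 lower, with Cdh5 detected in no group. Of 4 blood cell markers 0, 0, 0 and 1 were higher and 2, 1, 1 and 1 lower, with a summed level of 13.62 to 15.56 in controls and 11.41 to 12.76 in Krt19-high nodules.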

How the data were processed

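RNA of 48 laser-captured regions was labelled as biotinylated cRNA and hybridised to 1-colour Illumina rat arrays, per the labels' protocols. BeadStudio 3.0.19.0 is named in the submitters' processing notes. The authors deposited 1 intensity and 1 detection p-value per probe and array. The deposited intensities of 22523 probes had medians of 159.0 to 159.6 in all arrays and a lowest value of 96.8, so they were already normalised between arrays, without subtracted background. Raw values had been allowed for in the planned tests, but no further normalisation was made. The deposited detection p-values rise in steps of 1 in 825.

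Intensities were taken as log2. Symbols came from the platform annotation, with 13793 probes having 1 symbol, 0 several and 8730 none, and 13752 Entrez IDs matched RefSeq (GRCr8). Each gene was read from its brightest probe, giving 22067 features (13337 genes and the unnamed probes). One linear model over all 48 arrays was fitted with limma 3.58.1 in R 4.3.3 (lmFit, eBayes), with 6 labelled groups, or 8 where nodules were divided by sample number. No feature was filtered, p-values were adjusted by Benjamini-Hochberg over all features, and calls use 0.05. The model was tested on simulated data with known shifts. The number of arrays limits the precision. The highest correlation between 2 arrays was 0.995751, so no array was a copy of another.

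The members and lists were chosen with earlier results of these data known. Named in full are the 5 called members with the largest change in each comparison with control and between Krt19-high and Krt19-low nodules, and Cdk1, Ccnd1 and Pcna throughout. From each other pathway list the 2 largest called rises and falls in Krt19-high nodules and advanced HCC are named, and Cdkn1a throughout. Alternatives were background correction (neqc), a detection filter, the mean of probes, the number range or sets of 12 numbers as a block, array weights, other controls, and leaving out each array. For comparisons of the labelled groups, the fit with nodules divided by sample number was a further alternative.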

Additional observations from a re-analysis of the deposited data

Results flagged for a closer look

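Of 204 combinations of gene and group examined, 12 held a highest or lowest array far from the others by Dixon's test, where chance gives about 1 in 20. In advanced HCC, sample 29 was lowest in 3 of them, with Cdk4 at 9.29 (nearest array 10.32), Pcna at 10.23 (11.59) and Cks2 at 7.88 (10.05), all log2 intensity. Sample 36 of the same group was highest for Melk at 7.74 (7.44). Among nodules labelled KRT19-positive, Ccnd1 was lowest in sample 22 at 10.62 (11.42) and Ttk highest in sample 2 at 7.83 (7.54). Among those labelled KRT19-negative, Tyms was lowest in sample 6 at 7.29 (7.65) and Plk1 in sample 8 at 6.94 (7.29). Mcm3 was highest in adenoma sample 42 at 7.65 (7.47). In controls Mcm2 was highest in sample 11 at 8.21 (7.98), Mcm3 in sample 12 at 7.47 (7.28) and Mcm5 in sample 48 at 7.68 (7.38).

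The difference between nodules labelled KRT19-positive and KRT19-negative itself differed between samples 1 to 10 and samples 15 to 24 in 6 genes (limma interaction, adjusted p under 0.05). The interaction was 1.60 on the log2 scale for Ccnb2, 1.07 for Rrm2, 0.97 for Pcna, 0.77 for Cdk4, 0.48 for Mcm3 and 0.37 for Melk. These are the same data as the Krt19-high and Krt19-low comparison, in which each value is divided by 2.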

How the results depend on the processing

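Under the alternatives run, no gene changed sign in a comparison where it was named in full. The counts of genes higher than control in adenomas, early HCC and advanced HCC stayed within 1.5 times. Nodule counts moved, and the cause was not tested. For nodules labelled KRT19-positive (8 genes), the range block gave 4, the block of 12 numbers 0, array weights 13, the controls without samples 25 to 27 gave 4, and samples 15 to 27 alone 0. For those labelled KRT19-negative (6) the block of 12 gave 0, array weights 18, the other controls 2 and samples 1 to 14 alone 0. For Krt19-high nodules (17) the block of 12 gave 8, samples 1 to 14 alone 7 and samples 15 to 27 alone 4. For Krt19-low nodules (1) neqc gave 3, array weights 2, and the block of 12, the other controls and either range alone 0. Krt19-high against Krt19-low (6) gave 10 with neqc, 11 with a detection filter, 15 with array weights and 0 within either range. Advanced HCC against Krt19-high nodules (16) gave 7 with the range block and 0 with the block of 12, and array weights called 1 lower. With the block of 12, only 19 of 22067 features were higher in that comparison. Advanced against early HCC gave 2 higher with array weights, and 1 lower with neqc and 0 with the block of 12 (from 2). That block called 1 of 22067 features lower.

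Leaving out 1 array, KRT19-negative nodules gave 3 to 9 (3 without sample 15 or 19), Krt19-low nodules 0 to 2, Krt19-high against low 0 to 11 higher and 0 to 1 lower, advanced against early HCC 0 to 2 higher and 0 to 2 lower, and advanced HCC against Krt19-high nodules 0 to 1 lower. Without sample 29 the advanced HCC genes above every control rose from 6 to 18. Of 293 values of the 36 checked pairs under alternatives other than leaving out an array, 239 kept their call and 54 lost it. No paired analysis was possible because sample numbers are not shared between groups. Signal near background, with detection in 24 arrays or fewer, limits Ccnb1, Cenpf, Kif2c, Bub1b, E2f1, Melk, Nusap1, Mcm3, Mcm4 and Mcm5.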

Other observations

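Controls 25 to 27 differed from the other 7 controls in 402 of 22067 features (limma, adjusted p under 0.05), and in 0 of the 34 cell division genes.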
